A study of Mus musculus with 48 samples.

Results

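Liver messenger RNA was compared between male C57BL6/J mice fed a high-fat diet (HFD) for 12 weeks and males fed a regular diet (RD) for the same 12 weeks. The comparison was chosen by tissue, sex and time on the diet, and it uses 6 of the 48 libraries of the study, 3 on HFD and 3 on RD. The labels number the libraries of both diets 2, 3 and 4. All mice started their diets at 8 weeks of age. The HFD supplied 45% of its calories as fat, and the RD was a standard rodent chow eaten over the same period, so the diets differ in more than fat. The whole study also holds females, a cohort taken after 2 weeks and visceral white adipose tissue. The labels do not give body weight, fasting state, time of day at collection or whether a library pools animals. Nothing in them ties each library to a separate animal, so the p-values measure the spread between libraries, which may be technical.

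The liver clears dietary fat and glucose, exports lipoproteins, makes bile acids and breaks down drugs with cytochrome P450 enzymes. Its resident macrophages, the Kupffer cells, line the sinusoids beside a fenestrated endothelium and depend on signalling through the receptor Csf1r and the transcription factor PU.1, encoded by Spi1. Cytochrome P450 genes of the Cyp3a and Cyp2c families are induced through the nuclear receptors PXR and CAR. The circadian clock, with Arntl (BMAL1) as its activator, gives many liver genes a daily rhythm. Feeding fat to rodents over many weeks commonly enlarges hepatocyte lipid droplets, whose coat proteins include Cidec and the perilipins.

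Promoter sequences are shown for genes that fell, as examples of the results described below: Vsig4 and Mrc1 of the macrophage lists, Cyp3a11 of the drug metabolism list, and a site near the start of Arntl. They come from RefSeq on GRCm38.p6 and are written 5′ to 3′ on the strand of the gene. Capitals mark GAGGAA (or TTCCTC on the other strand), a core that PU.1 can bind, in Vsig4 at chrX:96293439-96293688 (minus strand) and in Mrc1 at chr2:14229164-14229391 (plus strand). They mark TGAACT, a core that nuclear receptors can bind, in Cyp3a11 at chr5:145879965-145880104 (minus strand). In Arntl at chr7:113207530-113207558 (plus strand) they mark TAGGTCA, a core read by ROR and REV-ERB receptors.
Vsig4: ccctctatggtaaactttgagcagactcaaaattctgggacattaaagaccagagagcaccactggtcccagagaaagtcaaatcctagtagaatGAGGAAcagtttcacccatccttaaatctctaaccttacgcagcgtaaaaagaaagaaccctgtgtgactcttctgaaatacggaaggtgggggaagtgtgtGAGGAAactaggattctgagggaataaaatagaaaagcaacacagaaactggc
Mrc1: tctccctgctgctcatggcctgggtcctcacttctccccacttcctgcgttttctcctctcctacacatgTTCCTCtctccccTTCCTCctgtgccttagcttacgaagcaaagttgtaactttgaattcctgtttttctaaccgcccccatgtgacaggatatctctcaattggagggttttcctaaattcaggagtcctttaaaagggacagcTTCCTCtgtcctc
Cyp3a11: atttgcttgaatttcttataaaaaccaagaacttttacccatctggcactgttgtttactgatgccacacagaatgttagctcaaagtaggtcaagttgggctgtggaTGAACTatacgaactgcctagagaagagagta
Arntl: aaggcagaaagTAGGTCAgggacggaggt
Each motif was sought on both strands in the 250 bases before the annotated start. Of 27025 genes with such a window, 25.9% held GAGGAA in at least 1 window, 13.4% held TGAACT and 2.55% held TAGGTCA. Among the macrophage markers 8 of 14 genes with a window held GAGGAA, and among the Kupffer cell markers 7 of 13 did. The drug metabolism list held TGAACT in 6 of 35 genes with a window. These counts cover all tested members, most of them not called. Among the members that fell and had a window, 1 of 3 macrophage and 2 of 3 Kupffer cell markers held GAGGAA. In the drug metabolism list 1 of 5 such genes held TGAACT. The promoters of Vsig4, Mrc1 and Cyp3a11 printed above are among those that hold the motif. The Arntl site begins 30 bases after the annotated start used here and so lies outside that search. That start is not the GENCODE start of Arntl given below. These matches are descriptions of the letters, and no binding was measured.

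The 6 libraries held totals of 62.9, 77.6 and 60.7 M expected counts on HFD, against 59.3, 79.4 and 76.1 M on RD. Levels are given as CPM, counts scaled to the TMM-adjusted library size, in the order of libraries 2, 3 and 4. Hepatocyte identity genes had a mean log2 CPM of 9.96 to 10.02 on HFD and 9.90 to 10.09 on RD, and none of the 20 was called. Mitochondrially encoded transcripts summed to 92901, 132931 and 141294 CPM on HFD, against 141327, 75013 and 81391 CPM on RD. Library HFD 4 stood apart from the other HFD libraries. It had the lowest TMM factor (0.8126) and the fewest genes above 0 (17075) of the 24 liver libraries. Its mean log2 CPM of 24 acute phase genes was 8.92, against 6.99 and 7.68 in HFD 2 and HFD 3 and 6.93, 6.70 and 7.84 on RD. For 23 chaperone and ER degradation genes of the unfolded protein response it was 8.49, against 7.03 and 7.39 in HFD 2 and HFD 3. On RD that mean was 7.66, 7.41 and 7.82. In both lists library 4 was thus the highest on RD as well as on HFD. The part of HFD 4 in the results was not tested beyond leaving it out.

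Of 15897 genes tested, 178 were called at an adjusted p under 0.05, which is 1.12%. The words rose and fell are used of these calls only. At an unadjusted p under 0.05 lay 2087 genes, 13.1% of all tested, the background for such counts in the gene lists. Only 32 rose (0.201%), while 146 fell (0.918%). Over all genes tested the median log2 fold change (HFD over RD) was 0.02, and 47.4% of genes lay below 0. The smallest absolute log2 fold change among the 178 called genes was 0.47. The calls come from a test on these same 6 libraries, which favours groups that do not overlap. In 174 of the 178 called genes the groups did not overlap. Such separation of called genes, where given below, is therefore a description and no further support. The genes that fell had a median of −1.11 and those that rose a median of 1.53. Among the 32 risen genes HFD 4 was the highest of the 6 libraries in 18, HFD 3 in 10 and HFD 2 in 4. Among the 146 fallen genes HFD 4 was the lowest in 67, HFD 3 in 65 and HFD 2 in 14.

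The count rests on the spread shared over all 24 liver libraries. With the 6 libraries fitted alone 0 genes were called by edgeR (1394 at an unadjusted p under 0.05). The 174 called genes that entered that fit kept their sign, which the use of the same 6 libraries makes all but certain. DESeq2 on all liver libraries called 451, among them all 178. The count was 353 without HFD 2, 21 without HFD 3, 47 without RD 3 and 90 without RD 4. Without HFD 4 it was 144, of which 93 were shared with the 178. With each of the 6 libraries left out in turn, 15 genes stayed called, and all 15 fell. They are the macrophage genes Csf1r, Emr1, Emr4, Msr1, Wfdc17 and Fcna, the B cell gene Bank1, the drug metabolism genes Cyp3a11, Cyp3a59 and Ugt1a9, the transporters Slc39a4 and Slco2a1, and Lpl, Me2 and Rgl1. Of these, Bank1, Fcna, Me2, Rgl1, Slco2a1 and Slc39a4 were named after their values were seen.

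Part of the macrophage genes fell in the HFD livers. Of 20 macrophage markers tested 6 fell and none rose, against 0.918% of all genes that fell, and 17 of the 20 lay below 0, with a median log2 fold change of −0.69. Of 16 Kupffer cell markers 3 fell and none rose, 15 lay below 0, and the median was −0.91. In bulk tissue fewer macrophages and less of each RNA per macrophage cannot be told apart. The mean log2 CPM of the macrophage markers was 2.40, 1.99 and 2.69 on HFD, against 3.13, 3.17 and 3.10 on RD. That of the Kupffer cell markers was 3.36, 3.04 and 3.70 on HFD, against 4.24, 4.25 and 4.22 on RD.

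Csf1r, the receptor for the growth factor that macrophages need to survive, had 17.8, 12.2 and 23.2 CPM on HFD, against 49.6, 58.1 and 45.9 CPM on RD. Every HFD library was below every RD library. Its log2 fold change was −1.53 ± 0.23 (SE, n = 3 per diet, adjusted p = 0.0037). Emr1 (current symbol Adgre1; chr17:57358691-57483527), the classical surface marker of mouse macrophages, had 5.44, 3.90 and 6.83 CPM on HFD, against 16.8, 20.9 and 17.6 CPM on RD. The diets were again fully separated, with a log2 fold change of −1.78 ± 0.25 (adjusted p = 0.002). Cd163 (chr6:124304656-124330527), a scavenger receptor for haemoglobin bound to haptoglobin, had 3.89, 4.60 and 8.96 CPM on HFD, against 26.2, 21.3 and 14.7 CPM on RD. Its groups did not overlap, although HFD 4 and RD 4 lay closest, and the log2 fold change was −1.84 ± 0.36 (adjusted p = 0.015).

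Spi1, which encodes PU.1, had 1.80, 1.81 and 2.57 CPM on HFD, against 5.09, 4.45 and 3.46 CPM on RD, a log2 fold change of −1.07 ± 0.25 (adjusted p = 0.038). Cybb, the catalytic subunit of the phagocyte NADPH oxidase, fell by 1.06 ± 0.24 on the log2 scale (adjusted p = 0.036). Mrc1, the mannose receptor that Kupffer and sinusoidal endothelial cells share, had 39.1, 34.7 and 30.7 CPM on HFD, against 66.0, 52.9 and 43.1 CPM on RD. It showed the smallest of these changes, −0.63 ± 0.15 (adjusted p = 0.047). Outside the list, the scavenger receptor Msr1 fell by 1.38 ± 0.21 (adjusted p = 0.0037), the sialic acid receptor Siglec1 by 1.45 ± 0.28 (adjusted p = 0.014) and the adhesion receptor Emr4 by 1.66 ± 0.26 (adjusted p = 0.0044).

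Among genes more restricted to Kupffer cells, the complement receptor gene Vsig4 had 9.15, 8.82 and 15.0 CPM on HFD, against 29.1, 28.4 and 19.8 CPM on RD. It fell by 1.23 ± 0.22 on the log2 scale (adjusted p = 0.011), and its promoter is printed above with 2 GAGGAA cores. Cd207 (langerin) was rare, at 0.981, 0.629 and 0.790 CPM on HFD, against 4.37, 2.86 and 1.63 CPM on RD (−1.88 ± 0.40, adjusted p = 0.023). Folr2, a folate receptor, had 4.02, 2.72 and 5.13 CPM on HFD, against 7.84, 8.22 and 7.53 CPM on RD (−1.0 ± 0.24, adjusted p = 0.042). Several abundant Kupffer cell genes lay lower without passing the threshold. Cd5l, a secreted macrophage protein, had a log2 fold change of −1.35 ± 0.34 (adjusted p = 0.061), Clec4f, a lectin, −0.90 ± 0.26 (adjusted p = 0.11) and the complement component C1qc −0.88 ± 0.22 (adjusted p = 0.052). Timd4, a phosphatidylserine receptor, had −1.20 ± 0.33 (adjusted p = 0.091).

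The fall of Csf1r and Emr1 was called with each library left out in turn. The number of macrophage markers that fell was 2 without HFD 3 or without RD 3, 3 without RD 2 and 8 without HFD 4. DESeq2 called 8 of the macrophage and 8 of the Kupffer cell markers lower. For Kupffer cell markers the number by edgeR was 0 without HFD 3, 1 without RD 2 or without RD 3, 2 without RD 4 and 6 without HFD 4. Lipid-associated macrophage markers did not share this pattern: of 14 tested only Lpl fell, and the list median was 0.28. Lpl, the lipoprotein lipase, had 9.89, 7.08 and 12.8 CPM on HFD, against 26.5, 34.4 and 24.4 CPM on RD (−1.52 ± 0.22, adjusted p = 0.002). Trem2 was at 0.563, 0.429 and 0.628 CPM on HFD and at 0.502, 0.944 and 0.410 CPM on RD, so the diets overlapped (−0.21 ± 0.37, adjusted p = 0.88).

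**Figure D1:**
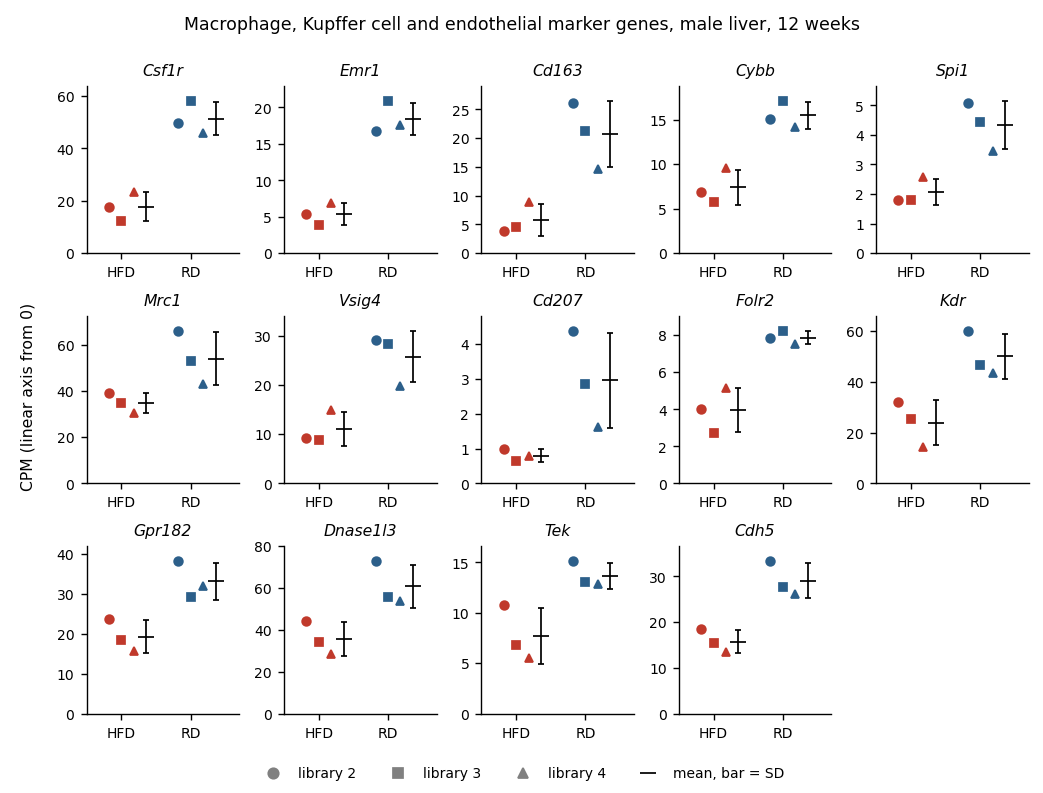
CPM of 9 macrophage and Kupffer cell markers and 5 endothelial markers in each of the 3 HFD and 3 RD male liver libraries at 12 weeks, on linear axes from 0. Symbols give the library number, bars the mean and SD, and in all 14 genes the HFD libraries lie below the RD libraries. Calling favours such separation, which held for 174 of all 178 called genes.

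Part of the endothelial genes fell as well. Of 18 endothelial markers 5 fell and none rose, 16 lay below 0 and the median log2 fold change was −0.55. Kdr (chr5:75932827-75978458), the main receptor for VEGF, had 32.1, 25.3 and 14.5 CPM on HFD, against 60, 46.8 and 43.4 CPM on RD. Its diets were separated, with HFD 4 the lowest, and it fell by 1.06 ± 0.22 on the log2 scale (adjusted p = 0.023). Gpr182, an atypical chemokine receptor of sinusoidal endothelium, fell by 0.78 ± 0.15 (adjusted p = 0.014), and Dnase1l3, a secreted DNase, by 0.77 ± 0.15 (adjusted p = 0.014). The angiopoietin receptor gene Tek fell by 0.82 ± 0.19 (adjusted p = 0.041) and the VE-cadherin gene Cdh5 by 0.88 ± 0.21 (adjusted p = 0.047). Stab2, a hyaluronan clearance receptor, had −0.93 ± 0.23 (adjusted p = 0.054). Lyve1, another hyaluronan receptor, lay the other way at 10.3, 10.9 and 10.4 CPM on HFD, against 7.27, 6.82 and 8.49 CPM on RD (0.49 ± 0.19, adjusted p = 0.25). The number of endothelial markers that fell was 12 without HFD 2, 0 without HFD 3, 1 without HFD 4 or without RD 2, 2 without RD 3 and 3 without RD 4, and DESeq2 called 10 lower.

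Among the remaining lists of non-hepatocyte cells, 1 B cell marker and 1 MHC class II gene were called. None of 16 stellate cell markers was called by edgeR or DESeq2 (4 at an unadjusted p under 0.05, median −0.21). None of 9 bile duct markers, 16 T and NK cell markers or 8 neutrophil markers was called by either tool, with 0, 2 and 0 at an unadjusted p under 0.05. Of 15 B cell markers only Igj, the joining chain of secreted IgA and IgM, fell: it had 1.53, 1.19 and 1.28 CPM on HFD, against 4.41, 6.51 and 3.66 CPM on RD (−1.87 ± 0.35, adjusted p = 0.013). Outside that list, the IgA constant region gene Igha had 2.86, 2.04 and 2.15 CPM on HFD, against 13.2, 26.4 and 14.4 CPM on RD. Both plasma cell genes were separated by diet, and Igha fell by 2.93 ± 0.50 (adjusted p = 0.0098). Reads of immunoglobulin genes can be shared within the locus, so the split between their segments is uncertain. Among 9 MHC class II genes H2-Ob fell at very low levels (0.177, 0.129 and 0.0608 CPM on HFD, against 0.242, 0.770 and 0.301 CPM on RD), and without RD 3 its log2 fold change was −1.12, no longer called.

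Drug metabolism genes fell in part. Of 39 genes on the list of drug metabolism genes and PXR and CAR targets 5 fell and none rose by edgeR. DESeq2 called 5 lower and 1 higher, and the list median was −0.10. Cyp3a11 (chr5:145854426-145879964), a major Cyp3a enzyme of mouse liver, had 569, 374 and 302 CPM on HFD, against 2692, 2655 and 1875 CPM on RD. No HFD library came near the RD range, and the log2 fold change was −2.54 ± 0.31 (adjusted p = 0.0006). Cyp3a59, a neighbour in the same cluster, had 3.91, 6.82 and 3.57 CPM on HFD, against 14.6, 17.6 and 10.7 CPM on RD (−1.58 ± 0.22, adjusted p = 0.002). The Cyp3a genes are near-identical copies, so how reads were split between them is uncertain.

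Cyp2c55, a PXR and CAR target, had 2.30, 1.60 and 0.811 CPM on HFD, against 9.43, 10.5 and 4.40 CPM on RD (−2.36 ± 0.46, adjusted p = 0.014). The far more abundant Cyp2c29 had 875, 581 and 592 CPM on HFD, against 1337, 1253 and 1123 CPM on RD (−0.86 ± 0.19, adjusted p = 0.031). Both were separated by diet, with the caveat that the Cyp2c genes too share sequence. Ces2a, a carboxylesterase that cleaves drugs and acylglycerols, had 121, 108 and 85.5 CPM on HFD, against 275, 359 and 262 CPM on RD (−1.51 ± 0.28, adjusted p = 0.014). Outside the drug metabolism list, Ugt1a9, a glucuronidation enzyme that shares its last exons with the other Ugt1a genes, fell by 1.90 ± 0.29 (adjusted p = 0.004). Por, which passes electrons to every microsomal P450, lay the other way with 430, 576 and 454 CPM on HFD, against 286, 250 and 195 CPM on RD (1.0 ± 0.30, adjusted p = 0.12 by edgeR and 0.037 by DESeq2). The receptor genes overlapped between the diets: Nr1i2 (PXR) had 0.18 ± 0.24 (adjusted p = 0.82) and Nr1i3 (CAR) 0.33 ± 0.28 (adjusted p = 0.68). On the drug metabolism list the number of genes that fell was 2 without HFD 3 or without RD 3 and 3 without HFD 4.

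Outside the lists, the zinc importer gene Slc39a4 had the smallest adjusted p of all genes, 0.00037. It had 10.2, 10.7 and 9.44 CPM on HFD, against 23.0, 19.4 and 22.5 CPM on RD. The spread within each diet was small, and it fell by 1.1 ± 0.13 on the log2 scale. In the clock, Arntl (chr7:113207465-113314126) had 3.06, 2.49 and 2.45 CPM on HFD, against 9.78, 9.20 and 21.5 CPM on RD (−2.34 ± 0.47, adjusted p = 0.02). RD 4 was far above the other RD libraries, and without it Arntl had −1.83 (adjusted p = 0.087). Arntl was also not called without HFD 3 or without HFD 4. Its partner Npas2 had −2.33 ± 0.75 (adjusted p = 0.17 by edgeR and 0.04 by DESeq2), and the repressor Ciart had 24.6, 41.2 and 2.15 CPM on HFD, against 3.20, 4.07 and 1.04 CPM on RD (3.03 ± 0.95, adjusted p = 0.16). None of 15 clock repressor and output genes was called by edgeR (4 at an unadjusted p under 0.05, DESeq2 called 1). Time of day is not in the labels, and its part in these values was not tested.

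**Figure D2:**
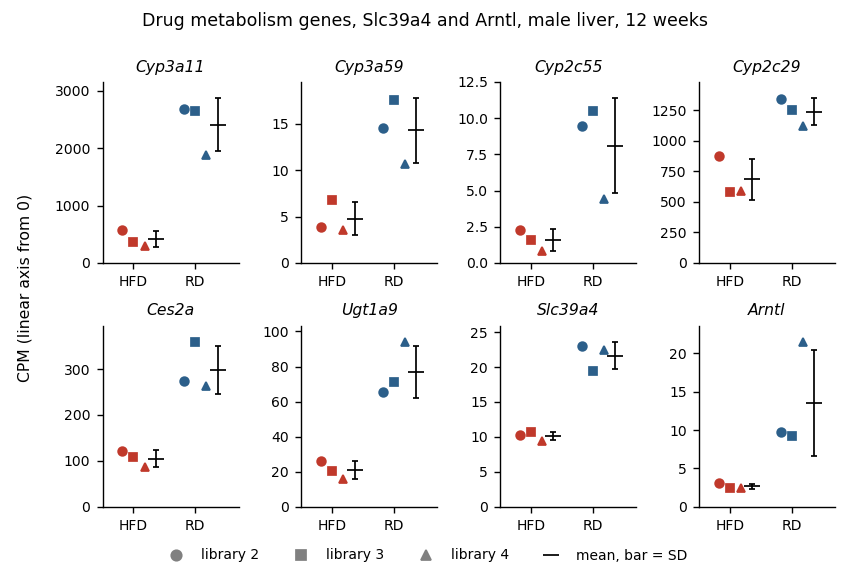
CPM of 6 drug metabolism genes, Slc39a4 and Arntl in each HFD and RD male liver library at 12 weeks, on linear axes from 0, with symbols for the library number and bars for the mean and SD. The HFD libraries lie below the RD libraries in all 8 genes, and Cyp3a11 stays at or under 569 CPM on HFD and at or above 1875 CPM on RD. Calling favours such separation, which held for 174 of all 178 called genes.

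Few members of the lipid lists were called. Of 24 lipid droplet genes Cidec and Lipe rose and Lpl fell, 20 lay above 0, and the median log2 fold change was 0.39. Neither Cidec nor Lipe was called without HFD 3, HFD 4, RD 2 or RD 3, and DESeq2 called 3 of the list higher. Cidec (chr6:113424634-113435760), which fuses lipid droplets, had 9.99, 18.1 and 54.3 CPM on HFD, against 5.08, 4.22 and 8.64 CPM on RD. The diets did not overlap but HFD 4 was far above the others: the log2 fold change was 2.20 ± 0.47 (adjusted p = 0.028), and 1.20 without HFD 4 (adjusted p = 0.15). Lipe, the hormone-sensitive lipase, had 15.7, 20.4 and 19.9 CPM on HFD, against 12.3, 10.3 and 9.47 CPM on RD (0.80 ± 0.19, adjusted p = 0.038). Pparg, the nuclear receptor that drives Cidec in fat cells, had 0.62 ± 0.18 (adjusted p = 0.13).

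Agpat9 (current symbol Gpat3), an acyltransferase of the first step of triglyceride synthesis, had 8.20, 9.81 and 15.2 CPM on HFD, against 1.23, 1.99 and 3.50 CPM on RD (2.30 ± 0.45, adjusted p = 0.016). Agpat9 was not called without HFD 3, HFD 4, RD 2 or RD 3. Cers6, a ceramide synthase, had 23.0, 28.0 and 112 CPM on HFD, against 10.2, 11.1 and 17 CPM on RD (2.09 ± 0.47, adjusted p = 0.036), and 0.97 without HFD 4 (adjusted p = 0.18). Nor was Cers6 called without HFD 3, RD 2, RD 3 or RD 4. Apoa4, an apolipoprotein of lipid export, had 527, 1003 and 1007 CPM on HFD, against 201, 274 and 228 CPM on RD (1.85 ± 0.34, adjusted p = 0.012). It was the only gene called among 26 apolipoprotein and lipoprotein genes. Fads2, the first desaturase of polyunsaturated fatty acid synthesis, had 1263, 1573 and 955 CPM on HFD, against 624, 643 and 650 CPM on RD. It was the only gene of 25 lipogenesis genes called by edgeR (0.98 ± 0.17, adjusted p = 0.0073), DESeq2 called 1 higher and 1 lower, and the list median was −0.09. Without HFD 3 neither Apoa4 (adjusted p = 0.061) nor Fads2 (adjusted p = 0.06) was called.

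Pcx (chr19:4510472-4621752), the pyruvate carboxylase that opens gluconeogenesis, had 218, 204 and 152 CPM on HFD, against 82.9, 68.7 and 78.5 CPM on RD. Its diets were well separated (1.32 ± 0.25, adjusted p = 0.014), it was not called without HFD 3 or without RD 3, and no other of 26 gluconeogenesis and glycolysis genes was called by edgeR. G6pc, the glucose-6-phosphatase of the final step, lay the other way with 389, 298 and 172 CPM on HFD, against 824, 931 and 909 CPM on RD (−1.63 ± 0.40, adjusted p = 0.054). That value lay at the threshold: its adjusted p was 0.0017 by DESeq2, 0.049 with median-of-ratios size factors and 0.048 with robust = FALSE, and ran from 0.034 to 0.17 with 1 library left out. Nrg4, a secreted ErbB4 ligand, had 13.1, 20.8 and 49.2 CPM on HFD, against 4.31, 5.53 and 5.03 CPM on RD (2.48 ± 0.47, adjusted p = 0.014), and 1.75 without HFD 4 (adjusted p = 0.052). Nor was Nrg4 called without RD 2, RD 3 or RD 4. Dio1, a deiodinase that activates thyroid hormone, rose by 1.17 ± 0.26 (adjusted p = 0.028), with 92.0, 108 and 130.0 CPM on HFD, against 43.0, 31.9 and 71.0 CPM on RD. Dio1 was not called without HFD 3, HFD 4, RD 2 or RD 3.

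None of Actg1, Cnbd2 and Ddit3 was called without HFD 4, and none without RD 2, RD 3 or RD 4. Actg1, the cytoplasmic gamma actin, had 109, 155 and 881 CPM on HFD, against 66.3, 72.6 and 77.1 CPM on RD (2.41 ± 0.50, adjusted p = 0.024), and 0.85 without HFD 4 (adjusted p = 0.05). Cnbd2, which encodes a protein with a cyclic nucleotide binding domain, had 62.2, 80.3 and 331 CPM on HFD, against 22.7, 32.2 and 36.2 CPM on RD (2.38 ± 0.56, adjusted p = 0.046), and 1.21 without HFD 4 (adjusted p = 0.26). Ddit3 (CHOP), a stress transcription factor and the only gene of 18 in the integrated stress response list called by edgeR (DESeq2 called 2, both higher), had 6.03, 6.16 and 12.6 CPM on HFD, against 3.51, 4.07 and 4.84 CPM on RD. It rose by 0.99 ± 0.23 (adjusted p = 0.041), and was not called without HFD 4 (adjusted p = 0.24). The adhesion receptor gene Gpr98 (current symbol Adgrv1) rose by 1.82 ± 0.40 (adjusted p = 0.028), Cntnap1, known from axon-glia contacts, by 1.75 ± 0.39 (adjusted p = 0.031) and Fam107b by 1.15 ± 0.25 (adjusted p = 0.024). None of Gpr98, Cntnap1 and Fam107b was called without HFD 3, RD 3 or RD 4. Among hepatokines Inhba, the activin A subunit, fell by 1.33 ± 0.30 (adjusted p = 0.036), and no other of 25 was called. With 1 library left out, Inhba was called only without HFD 4.

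**Figure D3:**
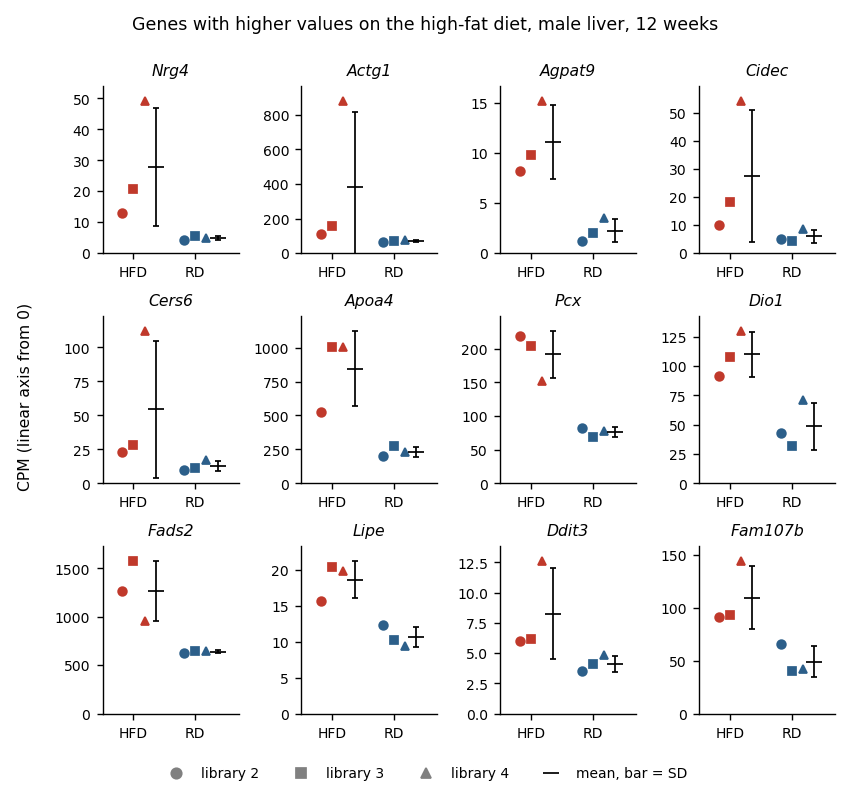
CPM of 12 genes that rose on HFD, in each HFD and RD male liver library at 12 weeks, on linear axes from 0, with symbols for the library number and bars for the mean and SD. HFD 4 (triangle) lies far above HFD 2 and HFD 3 in Actg1 (881 CPM), Cers6 (112 CPM), Cidec (54.3 CPM) and Nrg4 (49.2 CPM).

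In 26 of the 41 gene lists no member was called by edgeR. None of 24 acute phase genes was called (6 at an unadjusted p under 0.05, DESeq2 called 1), with a median of 0.40. The metallothionein gene Mt1 had 26.6, 82.8 and 917 CPM on HFD, against 5.13, 5.64 and 59.2 CPM on RD, so library 4 was the highest on both diets. None of 25 cholesterol synthesis and uptake genes was called (5 at an unadjusted p under 0.05, DESeq2 called 1), although 23 lay above 0 with a median of 0.39. Msmo1, a sterol oxidase of the pathway, had 298, 237 and 273 CPM on HFD, against 155, 193 and 128 CPM on RD (0.76 ± 0.23, adjusted p = 0.12). Of 41 fatty acid oxidation, ketogenesis and PPAR alpha target genes none was called (5 at an unadjusted p under 0.05, DESeq2 called 1), with a median of 0.18. None was called among 22 interferon response genes (6 at an unadjusted p under 0.05, DESeq2 0), 23 unfolded protein response genes (1, DESeq2 0), 30 collagen and matrix genes (3, DESeq2 0) or 28 nuclear oxidative phosphorylation genes (1, DESeq2 0).

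Sex-biased liver genes were examined because the title of the study concerns them. None of 35 male-biased genes was called by edgeR (4 at an unadjusted p under 0.05, DESeq2 called 1), with a median of −0.21. Of 30 female-biased genes Cyp2b9 rose and Cyp2c40 and Cyp2c69 fell, and the median was 0.20. This balance was not stable: DESeq2 called 6 higher and 2 lower, edgeR called 4 higher and 0 lower without HFD 4, 1 higher and 0 lower without HFD 3, 0 higher and 3 lower without RD 2, 0 higher and 1 lower without RD 3, and none without HFD 2 or without RD 4. Cyp2c40 had 0.177, 0.7 and 1.09 CPM on HFD, against 16.4, 1.96 and 22.4 CPM on RD (−4.39 ± 0.90, adjusted p = 0.024). Cyp2c69 had 0.692, 1.76 and 2.59 CPM on HFD, against 6.86, 6.12 and 28.6 CPM on RD (−3.05 ± 0.69, adjusted p = 0.038), and −1.96 without RD 4 (adjusted p = 0.2). Both are rare in these males and near-identical to other Cyp2c genes. Cyp2b9 had 4.49, 0.629 and 0.811 CPM on HFD, against 0.390, 0.310 and 0.342 CPM on RD (2.52 ± 0.53, adjusted p = 0.025). Without HFD 2 its log2 fold change was 1.02 (adjusted p = 0.063).

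**Figure D4:**
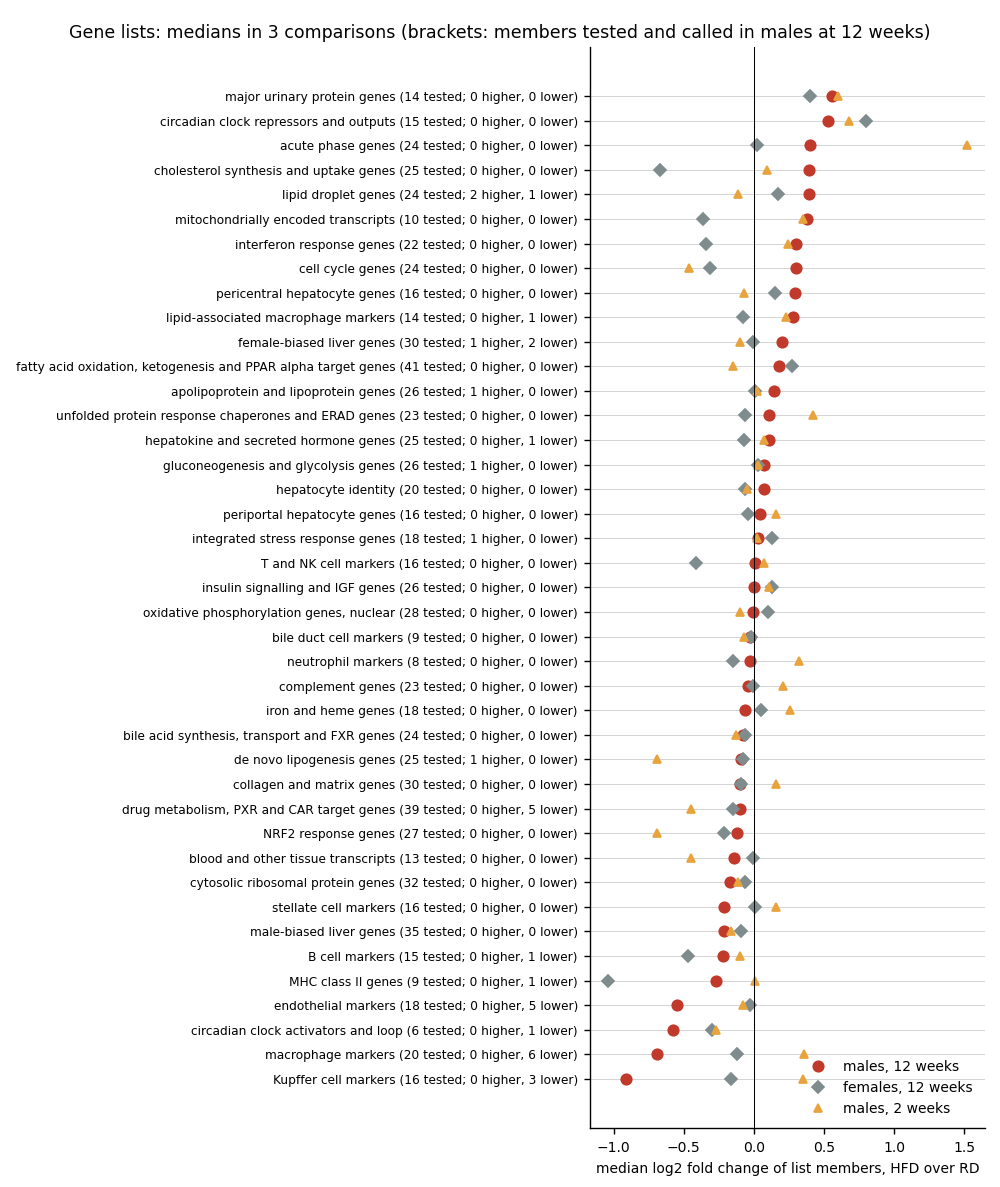
Median log2 fold change (HFD over RD) of the tested members of 41 gene lists in males at 12 weeks (circles), females at 12 weeks (diamonds) and males at 2 weeks (triangles), with the members called in males at 12 weeks in brackets. The Kupffer cell and macrophage lists have the lowest medians in males at 12 weeks, −0.91 and −0.69, and lie above 0 in males at 2 weeks, at 0.35 and 0.36.

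Males at 12 weeks were then set against females of the same time, which share no library with them. In females 1 gene (0.00629%) was called, Srp54b of the signal recognition particle, which fell. The 146 genes that fell in males had a median log2 fold change of −0.14 in females, where 115 of them lay below 0. Over all genes tested 52.0% lay below 0 in females, with a median of −0.01. The 32 genes that rose in males had a median of 0.15 in females, with 24 above 0. The difference between the sexes was tested as the sex by diet interaction, and 0 genes (0.0%) were called by edgeR, with 1104 at an unadjusted p under 0.05 and 69 called by DESeq2. Without HFD 2 of the males 10 were called, without HFD 4 of the males 2 and without RD 2 of the males 1. Emr1 had the log2 fold change of −1.78 ± 0.25 in males and −0.07 ± 0.24 in females, an interaction of −1.71 ± 0.35 (adjusted p = 0.19). Cyp3a11 had −2.54 ± 0.31 in males and −0.54 ± 0.30 in females, an interaction of −1.99 ± 0.42 (adjusted p = 0.19). With the threshold missed, neither gene is shown to differ between the sexes.

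Against males after 2 weeks on the diets the difference was called for more genes. At 2 weeks 54 genes were called (0.34%), 19 of them higher (0.12%) and 35 lower (0.22%). Among the 146 genes that fell at 12 weeks, 90 lay above 0 at 2 weeks and 56 below, with a median of 0.13. Among the 32 that rose, 23 lay above 0 at 2 weeks, with a median of 0.43. Over all genes tested 48.0% lay below 0 at 2 weeks. The time by diet interaction called 56 genes (0.352%). In 8 the HFD over RD ratio was higher at 12 weeks than at 2 weeks (0.0503%), and in 48 it was lower (0.302%). Of the 146 genes that fell at 12 weeks 40 were called in the interaction, and of the 32 that rose 2 were. The interaction contains the same 12-week difference by which these genes were called. Genes called at 12 weeks are thus favoured in it, and the overlap is no separate support. The interaction count was 4 without HFD 3 or without RD 3 of the 12-week males, 91 without HFD 2 and 115 without HFD 4. Leaving out libraries of the 2-week males gave 3 without HFD 13, 87 without HFD 14, 28 without RD 6, 25 without RD 7 and 8 without RD 8.

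Of the 6 genes with the lowest values among those called in the interaction that met the naming rule, Cd163, Emr1, Msr1 and Siglec1 encode macrophage receptors. Emr1 had −1.78 ± 0.25 at 12 weeks and 0.34 ± 0.24 at 2 weeks, an interaction of −2.12 ± 0.35 (adjusted p = 0.012). Cd163 had an interaction of −2.49 ± 0.49 (adjusted p = 0.035), Csf1r of −1.84 ± 0.33 (adjusted p = 0.018) and Msr1 of −2.11 ± 0.29 (adjusted p = 0.0042). At 2 weeks Csf1r had 82.4, 116 and 64.9 CPM on HFD, against 76.4, 70.8 and 66.0 CPM on RD. Those groups overlapped, and the RD values at 12 weeks (45.9 to 58.1 CPM) lay below them too, a difference between cohorts that was not tested. Of 20 macrophage markers 5 were called in the interaction, and 1 of 16 Kupffer cell markers. Of the endothelial markers, Kdr had an interaction of −1.12 ± 0.31 (adjusted p = 0.13).

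The 6 with the highest values among the called genes that met the rule were Me1, Abcd2, Fads2, Elovl5, Fads1 and Fmo1. Fads2 had 0.98 ± 0.17 at 12 weeks and −0.72 ± 0.17 at 2 weeks, an interaction of 1.70 ± 0.24 (adjusted p = 0.0042). Fads1, its partner desaturase, had 1.03 ± 0.22 (adjusted p = 0.037) and Elovl5, the elongase between them, 1.11 ± 0.23 (adjusted p = 0.036) in the same interaction. Me1, the malic enzyme that supplies NADPH, had 0.07 ± 0.31 at 12 weeks and −2.13 ± 0.32 at 2 weeks, an interaction of 2.20 ± 0.44 (adjusted p = 0.035), with 528, 329 and 162 CPM on HFD at 12 weeks, against 318, 363 and 288 CPM on RD. Abcd2, a peroxisomal fatty acid transporter, had 2.15 ± 0.46 (adjusted p = 0.045). Of these 6 genes only Fads2 was called at 12 weeks. Fads1, Elovl5, Abcd2 and Fmo1 had 0.48, 0.41, 1.10 and 0.41 at 12 weeks. At 2 weeks they had −0.55, −0.70, −1.04 and −0.59, and of the 6 genes Me1 and Fmo1 were called lower there.

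Of the 178 genes 6 were also called at 2 weeks, and all 6 fell at both times: Cyp2c55, Cyp3a11, Cyp3a59, Gm4477, Slc39a4 and Ugt1a9. Cyp3a11 had −2.54 ± 0.31 at 12 weeks and −1.78 ± 0.30 at 2 weeks (adjusted p = 0.012), and its interaction was −0.76 ± 0.42 (adjusted p = 0.53). At 2 weeks it had 527, 179 and 607 CPM on HFD, against 1618, 1658 and 1218 CPM on RD. Ugt1a9 had −1.90 ± 0.29 at 12 weeks and −1.99 ± 0.29 at 2 weeks, and Slc39a4 had −1.1 ± 0.13 at 12 weeks and −0.90 ± 0.12 at 2 weeks (adjusted p = 0.0062 for both at 2 weeks).

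**Figure D5:**
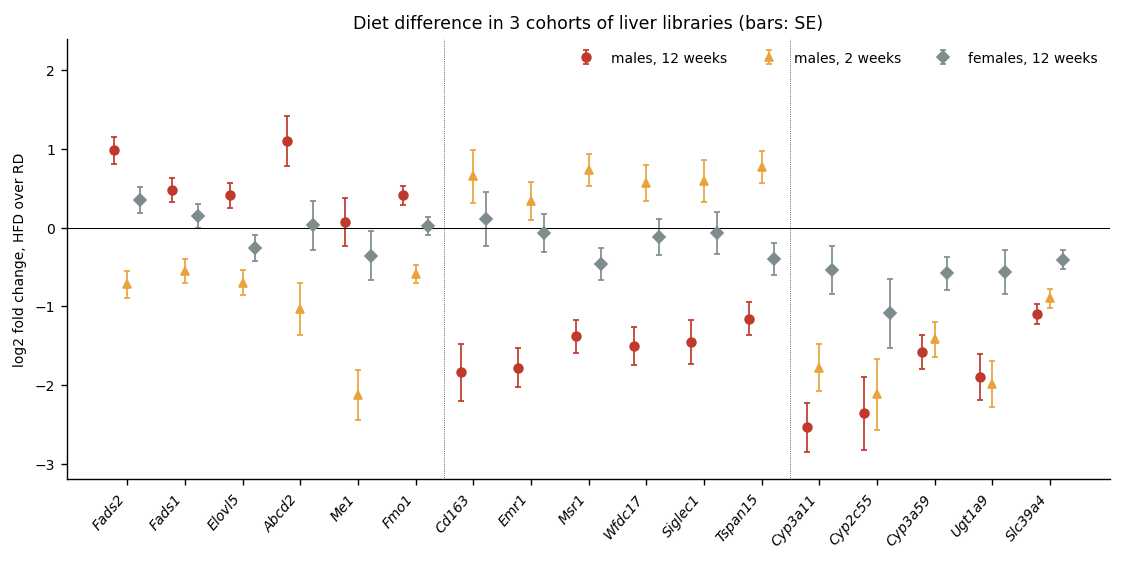
Log2 fold change (HFD over RD) with its SE in males at 12 weeks, males at 2 weeks and females at 12 weeks for 6 genes with higher and 6 with lower time by diet interaction and for 5 genes called in males at both times. Cd163, Emr1, Msr1, Wfdc17, Siglec1 and Tspan15 lie below 0 in males at 12 weeks and above 0 in males at 2 weeks, while Cyp3a11 and Slc39a4 lie below 0 at both.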

How the data were processed

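Polyadenylated RNA of male and female liver and visceral adipose tissue was made into strand-specific libraries from 200 ng of RNA, per the labels' protocols. The values deposited by the authors are expected counts, 1 row for each of 30055 gene symbols and 1 column for each of 48 libraries. Per the submitters' processing notes, kallisto was among the tools, with edgeR and DESeq2, and the build was GRCm38. Versions, and the step from transcripts to genes, are not given there. Expected counts were rounded, and all 24 liver libraries were fitted in 8 groups with edgeR 4.0.16 in R 4.3.3: filterByExpr by group, TMM scaling, the quasi-likelihood fit with robust = TRUE, and Benjamini-Hochberg adjustment over the 15897 genes tested. A call is an adjusted p under 0.05. Sharing the spread over all liver groups raises the degrees of freedom over the 4 that the 6 libraries have. The SE is the absolute log2 fold change over the square root of F, an approximation.

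The comparison, the 41 gene lists and the rule for naming genes were chosen with earlier results of these data known. The rule takes the 12 highest and 12 lowest called genes with a mean log2 CPM of at least 1, separated groups and no predicted-gene symbol. It also takes the 6 highest and 6 lowest of each interaction, and up to 4 members of each list by smallest p. Named after their values were seen were Spi1, Mrc1, Cd5l, Clec4f, Timd4, Trem2, Cdh5, Stab2, Lyve1, Cyp2c29, Por, Nr1i2, Pparg, Slc39a4, Gm4477, Srp54b and 5 further genes marked in the text. Alternatives were DESeq2 1.42.0, median-of-ratios size factors, no filter, robust = FALSE, the groups alone, a replicate block and each library left out. The fit was first tested on simulated data. Positions are from GENCODE M21 on GRCm38. Reads were not analysed here.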

Additional observations from a re-analysis of the deposited data

Results flagged for a closer look

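The diet difference in males at 12 weeks differed from that at 2 weeks for 56 genes by the time by diet interaction (edgeR, adjusted p under 0.05). Among the genes called in the interaction that met the naming rule, the largest differences were 2.20 for Me1, 2.15 for Abcd2, 1.70 for Fads2, 1.11 for Elovl5, 1.03 for Fads1 and 1.00 for Fmo1, with the higher HFD over RD ratio at 12 weeks. On the lower side they were −2.49 for Cd163, −2.12 for Emr1, −2.11 for Msr1, −2.07 for Wfdc17, −2.05 for Siglec1 and −1.93 for Tspan15, all on the log2 scale. Fmo1 encodes a flavin monooxygenase, Wfdc17 a small secreted protein and Tspan15 a tetraspanin. The 2 time points are separate cohorts of animals, so time on the diet, age and cohort cannot be told apart.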

How the results depend on the processing

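The 178 calls in males at 12 weeks became 0 with the 6 libraries fitted alone, which leaves fewer degrees of freedom, 0 with a replicate block in those libraries (1289 at an unadjusted p under 0.05) and 451 with DESeq2. Leaving out 1 library gave 21 to 353. Median-of-ratios size factors gave 194, no filter 159 and robust = FALSE 184. Libraries of the same number had correlations of −0.112, 0.0505 and 0.127, and those of different numbers ran from −0.169 to 0.169. With 3 libraries per group these values cannot decide whether the numbers mark pairs or a shared batch. Library 4 had the highest mean on both diets for the acute phase and unfolded protein response lists. For the Kupffer cell markers library 4 was the highest on HFD and the lowest on RD. The numbers were not taken as pairs, since their meaning is unknown. Of the 56 called genes followed one by one, all 56 were called by DESeq2 and 18 without HFD 3. None changed sign in any setting, but every setting reuses most or all of the 6 libraries, so the signs are no separate support. Among uncalled genes Trem2 turned to 0.24 without RD 3, and with 1 library left out Nr1i2 ran from −0.11 to 0.42 and Me1 from −0.43 to 0.39, with −0.08 for Me1 under the replicate block (log2). The sex by diet interaction called 0 genes, 1 with its 4 groups alone, 69 with DESeq2 and 0 to 10 with 1 library left out. The time by diet interaction called 56 genes, 1 with its 4 groups alone, 326 with DESeq2 and 3 to 115 with 1 library left out. The cause of these shifts was not tested. With 3 libraries per group, no change smaller than 0.47 (log2) was called at this depth, and rare genes such as Cyp2c40 and H2-Ob rest on few counts.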
